A study of Mus musculus with 12 samples.

Results

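Motile cilia are beating, hair-like extensions of the airway's multiciliated cells, built on a microtubule core called the axoneme. A set of 44 mouse genes of the motile cilium was followed here through mechanical ventilation of the lung. Each was taken by its symbol and was represented by the probe set with the highest mean signal among those that the array annotation gives to that symbol alone. Of the 44, 41 had such a probe set, out of 18193 genes on the array that had one. 40 of the 41 were bright enough to be tested, out of 12309 genes tested. Mcidas, Sntn and Lrriq1 had no probe set of their own and were not analysed here. Spag6, a protein of the central apparatus, was left out of the tests because its log2 signal lay between 2.78 and 2.97 on every array, under the minimum mean of 3.06.

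The arrays, Affymetrix Mouse Genome 430 2.0, measured total RNA of lung from male C57BL/6 mice aged 8 to 12 weeks. Mice were wild type or nmMLCK-/- (here the knockout), which lack the non-muscle form of the enzyme that phosphorylates myosin light chains. Each genotype either breathed spontaneously (SB) or underwent 4 h of ventilation with large breaths, the model of ventilator-induced lung injury (VILI), with 3 animals and 3 arrays in each of the 4 groups. The labels put the tidal volume at 40 ml/kg and the series text at 30 ml/kg, at a rate of 65 per min and with the end-expiratory pressure at 0 cmH2O. No group ventilated at a low tidal volume enters here, so ventilation as such and the large breaths cannot be told apart.

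In the airway epithelium, Foxj1 is the transcription factor that switches on the programme of motile cilia in cells that have left the cell cycle, and the RFX factors act with it on ciliary promoters through a DNA element called the X-box. The axoneme consists of doublet microtubules around a central pair. Dynein arms on the doublets are the motors of the beat, radial spokes and the central apparatus control it, tektins lie inside the doublet wall, and intraflagellar transport carries the parts to the tip.

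Most of these genes were lower after ventilation, and none passed the test in the upward direction. In wild type, 22 of the 40 tested genes fell (limma, Benjamini-Hochberg adjusted p under 0.05 over all genes tested), where 9.03% of all 12309 genes fell and 6.34% rose. In the knockout 18 of 40 fell, where 12.6% of all genes fell and 8.12% rose. With both genotypes averaged, 32 of 40 fell, where 22.6% of all genes did. The median log2 difference of the 40 genes was -0.65 in wild type and -0.52 in the knockout, against -0.05 over all genes in each. All 40 differences were negative in wild type and 38 in the knockout, while 56.6% and 56.1% of all genes had a negative difference. The largest falls were those of Tekt4, Foxj1, Zmynd10, Rsph4a, Wdr78 and Dnali1, each at least 2-fold in both genotypes. They were the only 6 of the 40 that passed the test within a genotype and were at least 2-fold lower there, where 2.16% of all genes were called and at least 2-fold lower in wild type and 2.57% in the knockout.

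These counts depend on single arrays more than the sizes do. Leaving out wild-type SB replicate 1, the wild-type count was 9, without wild-type VILI replicate 2 it was 14, and without wild-type VILI replicate 3 it was 10. In the knockout it was 11 without SB replicate 1, 8 without SB replicate 2 and 9 without VILI replicate 1. Lower calls over all genes shrank in the same fits, from 1112 to 517, 716 and 582 in wild type. In the knockout they shrank from 1555 to 1414, 767 and 940. The median difference stayed between -0.71 and -0.57 in wild type and between -0.57 and -0.41 in the knockout when any 1 array was left out. Setting the array medians equal gave 839 lower and 926 higher genes in wild type, against 1112 and 780 on the values as deposited. In the knockout it gave 1270 and 1097, against 1555 and 999. Of the 40 ciliary genes, 16 then fell in each genotype and none rose.

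The arrays correlated at 0.981 to 0.998 over all 45037 probe sets. Replicate 3 of the wild-type SB group and replicate 2 of the knockout SB group stood apart from the other 4 SB arrays on the second principal component, which held 17.1% of the variance. Without both, 24 ciliary genes fell in wild type and 12 in the knockout, where 1182 and 1391 of all genes did. Knockout VILI replicate 3 had a log2 signal of 2.25 for Il6, a cytokine that read 7.44 to 10.46 on the other 5 VILI arrays and 2.06 to 2.13 on the SB arrays. Without that array, 18 ciliary genes fell in wild type and 14 in the knockout, where 1071 and 1016 of all genes did. The deleted isoform's gene, Mylk, read lower in the knockout under SB on each of 3 probe sets, by log2 differences of -0.97 ± 0.47, -0.70 ± 0.26 and -0.22 ± 0.08 (SE), without passing the adjusted test.

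**Figure D1:**
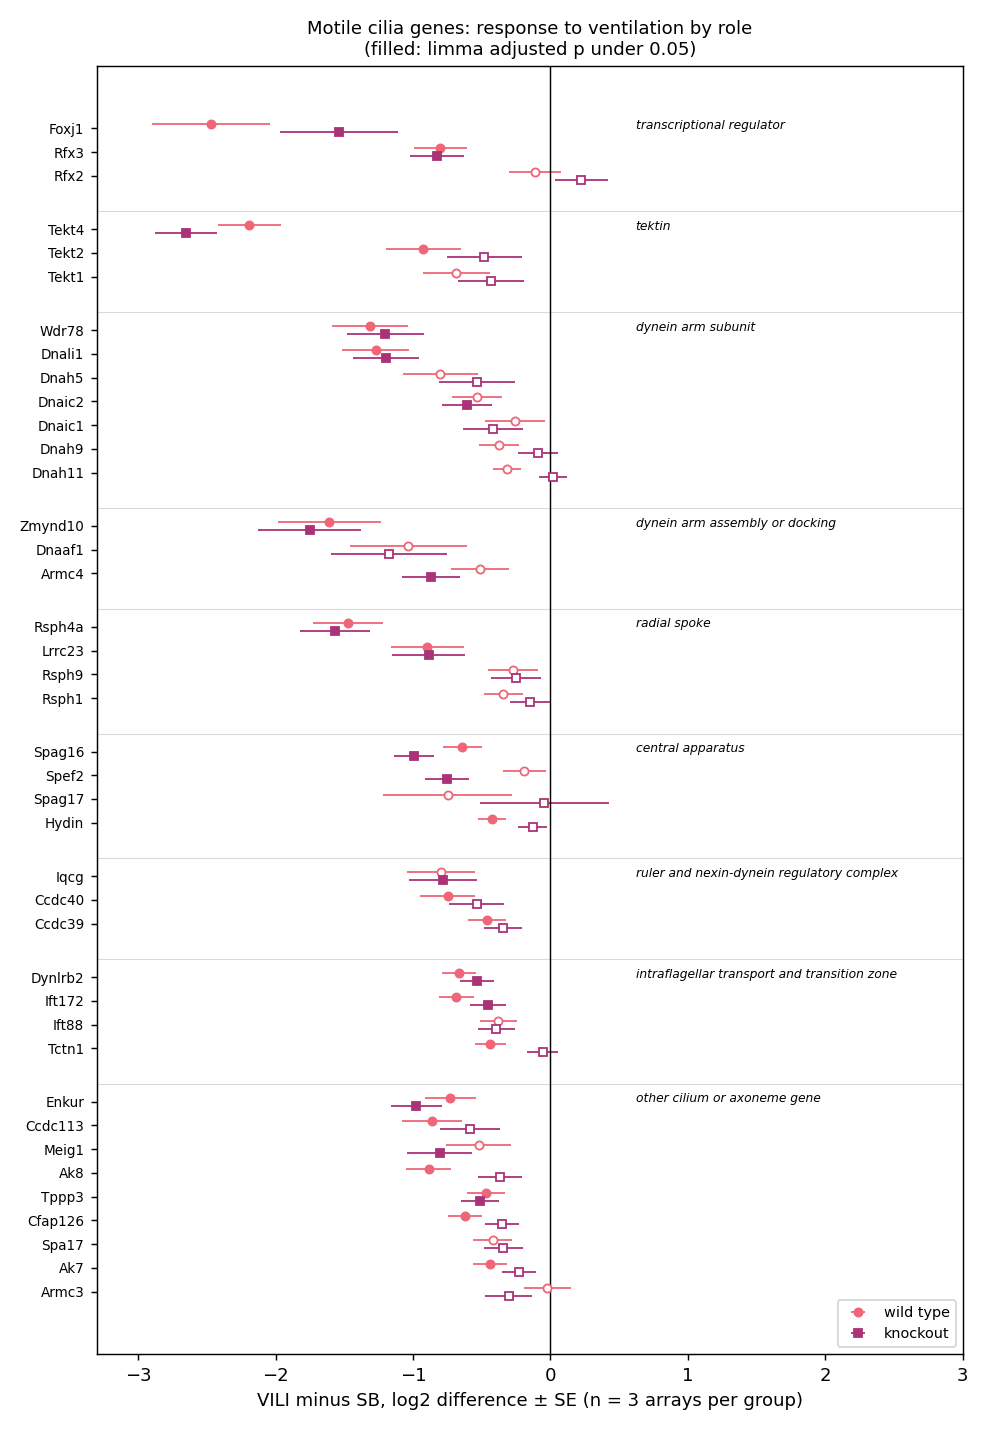
Log2 difference of VILI minus SB for each of the 40 tested genes, ordered by role, with its standard error (n = 3 arrays per group), for wild type (circles) and knockout (squares). Filled marks passed the adjusted p threshold of 0.05. All 22 filled circles and 18 filled squares lie left of 0. Foxj1 and Tekt4 are farthest left among the circles, and Tekt4 and Zmynd10 among the squares.

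Among the transcriptional regulators, Foxj1 and Rfx3 fell in both genotypes and Rfx2 did not pass in either. The log2 signal of Foxj1 in wild-type SB lung was 9.63, 8.78 and 9.02 on replicates 1, 2 and 3 (mean 9.14 ± 0.44, SD, n = 3). In wild-type VILI lung it was 6.36, 7.10 and 6.56 (6.67 ± 0.39). Every ventilated wild-type array thus lay more than 1 log2 unit under every wild-type array of spontaneously breathing animals. The difference was -2.47 ± 0.43 (SE; limma adjusted p = 0.00529), a 5.54-fold lower signal, and it passed in each of the 12 fits that left out 1 array.

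In the knockout, Foxj1 read 8.87, 9.07 and 8.81 under SB (8.92 ± 0.13, SD, n = 3). Under VILI it read 6.45, 7.22 and 8.46 (7.38 ± 1.01). The groups did not overlap, but the ventilated arrays were widely spread and replicate 3 lay closest to the SB arrays. Foxj1 was 2.91-fold lower in the knockout (-1.54 ± 0.43; limma adjusted p = 0.0303). This call was lost without knockout SB replicate 1, 2 or 3 or knockout VILI replicate 1 or 2, with adjusted p of 0.0564 to 0.0932, and at 0.0775 without both SB arrays that stand apart, while without knockout VILI replicate 3 the difference was -2.08 and the adjusted p 0.00547. The knockout's response minus that of wild type was 0.93 ± 0.60 for Foxj1, with a 95% interval from -0.41 to 2.27 (limma adjusted p = 0.979), and 0.39 without knockout VILI replicate 3. A smaller fall in the knockout was therefore not shown, and the interval does not show that the falls were alike.

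Rfx3, an RFX factor needed for the growth of cilia, read 8.12, 7.49 and 8.01 in wild-type SB lung and 7.16, 7.20 and 6.87 in wild-type VILI lung. Its knockout values were 8.29, 8.18 and 7.74 under SB and 7.04, 7.36 and 7.33 under VILI. All 6 ventilated arrays lay under all 6 SB arrays. The fall was -0.80 ± 0.19 in wild type (limma adjusted p = 0.0218) and -0.83 ± 0.19 in the knockout (adjusted p = 0.0164). In wild type it no longer passed when SB replicate 1, SB replicate 3 or VILI replicate 3 was left out, and in the knockout without knockout SB replicate 2 or knockout VILI replicate 1, with adjusted p between 0.0548 and 0.0828. Without both SB arrays that stand apart the adjusted p of Rfx3 was 0.0535 in wild type and 0.0434 in the knockout.

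Rfx2, the family's other member measured here and likewise a factor of ciliogenesis, read 7.40, 6.90 and 6.90 in wild-type SB lung and 7.07, 7.04 and 6.76 in wild-type VILI lung. Its knockout arrays read 6.34, 6.71 and 6.68 under SB and 7.03, 6.92 and 6.45 under VILI. SB and VILI arrays overlapped in each genotype. The difference was -0.11 ± 0.19 in wild type (95% interval -0.53 to 0.31) and 0.23 ± 0.19 in the knockout (-0.19 to 0.65), with adjusted p of 0.728 and 0.418. A second, dimmer probe set of Rfx2 gave -0.16 and 0.04. A fall of Rfx2 as large as that of Rfx3 lies outside both intervals.

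**Figure D2:**
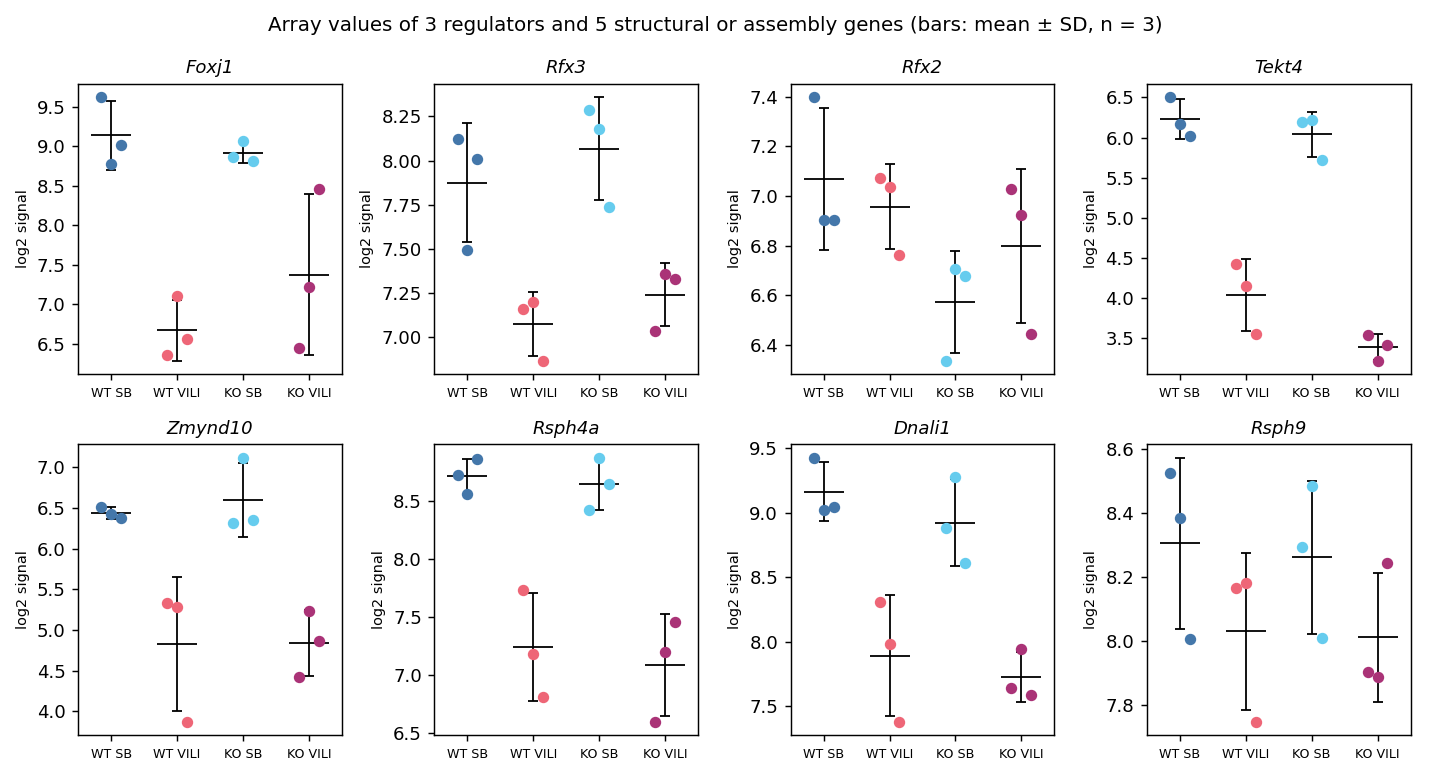
Log2 signal of Foxj1, Rfx3, Rfx2, Tekt4, Zmynd10, Rsph4a, Dnali1 and Rsph9 on each of the 12 arrays (points, replicates 1 to 3 from left to right), with the group mean and SD (n = 3; WT wild type, KO knockout); each panel has its own vertical scale. Tekt4, Zmynd10, Rsph4a and Dnali1 separate all SB from all VILI arrays, Rfx2 and Rsph9 overlap, and knockout VILI replicate 3 is the highest of its group for Foxj1, at 8.46.

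The other 37 tested genes were set beside the regulators. In wild type 20 of 37 fell and in the knockout 16 of 37, with medians of -0.64 and -0.51. Of all genes, 9.03% and 12.6% fell. Of the 3 regulators 2 fell in each genotype, with medians of -0.80 and -0.83. On knockout VILI replicates 1, 2 and 3, Foxj1 deviated from its own mean over the 12 arrays by -1.57, -0.81 and 0.43, and the median deviation of the 37 other genes was -0.46, -0.25 and -0.11. Foxj1 and the other genes thus stood in the same order over these 3 arrays, with replicate 3 highest. On the wild-type VILI arrays their orders differed. There Foxj1 deviated by -1.67, -0.93 and -1.47 on replicates 1, 2 and 3, and the median of the other genes by -0.12, -0.21 and -0.41. Replicate 1 was thus lowest for Foxj1 and highest for the other genes. A median of 37 genes spreads less than a single gene, so the sizes are not compared. Across the SB arrays Foxj1 lay 0.75 to 1.60 above its mean and the other genes 0.09 to 0.47 above theirs.

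The promoters of these genes were read for the letters of the X-box and of the forkhead core that Foxj1-type factors bind, in the 250 bases before the annotated start (RefSeq, GRCm38.p6). A window was found for 37 of the 44 genes and not for Foxj1, Rsph1, Rsph4a, Armc4, Dnaaf1, Wdr78 and Tppp3. The single X-box arm GTTGCC, on either strand (GGCAAC), was present in 15 of 37 windows (40.5%), and in 10 of the 26 windows of genes that fell with both genotypes averaged (38.5%). It was present in 11.8% of the windows of all 27025 genes. An X-box of both arms, written as GTTNCCNNGGNAAC with a fixed gap of 2 bases, was in 0 of 37 and in 0.444% of all genes. It is a palindrome that can overlap the single arm. This pattern misses paired arms at another gap or with other letters, so the 0 does not show that such pairs are absent. The forkhead core TGTTTAC (reverse GTAAACA) was in 2 of 37 (5.41%) and in 3.54% of all genes. The following 3 windows are those of the genes with such an arm that fell most over both genotypes; capitals mark the arms.
Lrrc23, chr6:124779728-124779977, minus strand: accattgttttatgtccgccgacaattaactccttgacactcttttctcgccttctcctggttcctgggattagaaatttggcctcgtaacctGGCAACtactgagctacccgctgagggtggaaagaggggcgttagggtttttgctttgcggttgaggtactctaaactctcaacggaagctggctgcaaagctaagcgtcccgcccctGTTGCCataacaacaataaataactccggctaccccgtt
Enkur, chr2:21205366-21205615, minus strand: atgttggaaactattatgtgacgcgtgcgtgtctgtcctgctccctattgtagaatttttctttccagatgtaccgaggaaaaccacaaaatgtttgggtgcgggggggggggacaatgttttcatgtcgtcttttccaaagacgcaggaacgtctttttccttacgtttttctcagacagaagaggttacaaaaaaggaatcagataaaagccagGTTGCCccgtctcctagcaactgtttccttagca
Spag16, chr1:69826720-69826969, plus strand: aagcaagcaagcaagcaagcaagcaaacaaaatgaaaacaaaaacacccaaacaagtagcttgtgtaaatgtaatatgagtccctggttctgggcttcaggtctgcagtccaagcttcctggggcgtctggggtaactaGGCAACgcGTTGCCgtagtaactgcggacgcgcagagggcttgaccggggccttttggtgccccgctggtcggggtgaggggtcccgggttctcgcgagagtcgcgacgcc
In the Lrrc23 window the arms begin 157 and 39 bases before the start, in the Enkur window 34 bases before it, and in the Spag16 window 111 and 103 bases before it, as an inverted pair. The arms of that pair stand in the opposite order to those of the X-box of both arms, so it is no match of that pattern.

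The Tekt4 window is shown as that of the gene without such an arm that fell most over both genotypes. It carries the inverted repeat GTTGCTCAGCAAC from 36 to 24 bases before the start, in capitals.
Tekt4, chr17:25471340-25471589, plus strand: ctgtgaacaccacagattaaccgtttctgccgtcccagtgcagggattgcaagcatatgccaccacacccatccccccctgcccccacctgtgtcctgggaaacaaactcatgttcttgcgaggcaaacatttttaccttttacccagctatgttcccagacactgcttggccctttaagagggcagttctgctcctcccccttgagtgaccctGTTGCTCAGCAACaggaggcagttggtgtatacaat
Written as GTTGCNNNGCAAC after this window had been read, the repeat was in 4 of the 37 windows (10.8%), those of Tekt4, Tekt2, Dnaic2 and Dynlrb2, and in 63 of 27025 genes (0.233%). It can overlap an arm where its middle letters allow. These matches describe letters only; binding was not measured.

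The tektins are filament proteins of the doublet wall. All 3 fell with both genotypes averaged, where 22.6% of all genes did, and Tekt4 fell by far more than the others. Tekt4 read 6.51, 6.17 and 6.02 in wild-type SB lung and 4.42, 4.15 and 3.55 in wild-type VILI lung. In the knockout it read 6.19, 6.22 and 5.72 under SB and 3.54, 3.22 and 3.42 under VILI. Each ventilated array lay more than 1 log2 unit under each SB array. The fall was -2.19 ± 0.23 in wild type, 4.56-fold (limma adjusted p = 0.000505), and -2.65 ± 0.23 in the knockout, 6.29-fold (adjusted p = 0.0002), and it passed in every fit that left out 1 array. The ventilated knockout values, 3.22 to 3.54, were near the minimum mean signal of 3.06. Tekt2 read 6.84, 7.05 and 6.47 against 6.25, 6.09 and 5.24 in wild type and fell by 0.93 ± 0.27 (adjusted p = 0.0449). That call was lost in 9 of 12 fits without 1 array, and without wild-type VILI replicate 3 the difference was -0.62 (adjusted p = 0.131). In the knockout Tekt2 read 6.55, 6.48 and 6.28 against 5.51, 6.12 and 6.24, a difference of -0.48 that did not pass. Tekt1 differed by -0.68 and -0.43 without passing in either genotype, and fell by 0.56 ± 0.17 with both averaged (adjusted p = 0.0275).

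Of the 7 dynein arm subunits, 2 fell in wild type, 3 in the knockout and 4 with both averaged. Of all genes, 9.03%, 12.6% and 22.6% fell in these comparisons. Dnali1, a light intermediate chain of the inner arm, read 9.43, 9.02 and 9.04 against 8.31, 7.99 and 7.38 in wild type, and 8.88, 9.28 and 8.61 against 7.64, 7.95 and 7.59 in the knockout. It fell by 1.27 ± 0.24 (limma adjusted p = 0.0081) and 1.20 ± 0.24 (adjusted p = 0.00884), and its second probe set gave -0.99 and -1.23. No SB array was as low as any ventilated array. Wdr78, an axonemal dynein intermediate chain, read 7.57, 7.54 and 7.79 against 6.83, 5.92 and 6.21 in wild type, and 7.73, 8.08 and 7.42 against 6.04, 6.59 and 6.996 in the knockout. Its falls were 1.31 ± 0.28 (adjusted p = 0.0125) and 1.20 ± 0.28 (adjusted p = 0.0156), the latter lost without knockout SB replicate 2 or knockout VILI replicate 1, at adjusted p of 0.0587 and 0.0518.

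The outer arm subunits moved less. Dnaic2, an outer arm intermediate chain, differed by -0.54 in wild type without passing and fell by 0.61 ± 0.18 in the knockout (limma adjusted p = 0.0388), a call lost in 6 of 12 fits without 1 array. Dnah5, an outer arm heavy chain, read 6.19, 6.83 and 6.36 against 6.24, 5.42 and 5.31 in wild type, and 5.79, 6.54 and 6.31 against 5.92, 5.57 and 5.56 in the knockout. Its groups overlapped in both genotypes, and only the averaged fall of 0.67 ± 0.19 passed (adjusted p = 0.0221). The other outer arm subunits, the heavy chains Dnah9 and Dnah11 and the intermediate chain Dnaic1, passed in no comparison, with differences from -0.42 to 0.02. Dnah11, for example, read 7.37 on each knockout SB array and 7.36 to 7.41 on the knockout VILI arrays, and Dnaic1 was close to the minimum signal throughout, at 2.72 to 3.98.

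The 3 factors that assemble or dock the dynein arms had medians of -1.03 in wild type and -1.18 in the knockout. All 3 fell with both genotypes averaged, where 22.6% of all genes did. Zmynd10, which helps to preassemble dynein arms in the cytoplasm, read 6.51, 6.43 and 6.37 against 5.33, 5.28 and 3.87 in wild type. The knockout arrays read 6.32, 7.12 and 6.35 against 4.43, 5.24 and 4.87. Its SB arrays were all above its VILI arrays, with wild-type VILI replicate 3 lowest. The falls were 1.61 ± 0.37 (limma adjusted p = 0.0183, and 0.0606 without wild-type SB replicate 1) and 1.75 ± 0.37 (adjusted p = 0.0111). Dnaaf1, another preassembly factor, read 5.23, 4.72 and 5.13 against 4.41, 3.77 and 3.79 in wild type, and 4.78, 5.64 and 4.59 against 2.76, 4.36 and 4.36 in the knockout. The groups did not overlap, but its differences of -1.03 and -1.18 (-0.64 without knockout VILI replicate 1) did not pass within a genotype, and the averaged fall of 1.11 ± 0.30 did (adjusted p = 0.0163). Armc4, which takes part in docking the outer arm, differed by -0.51 in wild type without passing and fell by 0.87 ± 0.21 in the knockout (adjusted p = 0.0191), a call lost without knockout SB replicate 1 or 2, at adjusted p of 0.0517 and 0.0521, and with array weights, which gave -0.47 (adjusted p = 0.0645).

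Within the radial spokes the genes split. Rsph4a, a spoke head protein, read 8.73, 8.56 and 8.87 against 7.74, 7.18 and 6.82 in wild type and 8.43, 8.88 and 8.65 against 6.60, 7.20 and 7.46 in the knockout, and fell by 1.47 ± 0.26 (limma adjusted p = 0.00552) and 1.57 ± 0.26 (adjusted p = 0.00367). Lrrc23, a spoke component, read 9.40, 9.31 and 8.84 against 8.78, 8.24 and 7.82 in wild type and 9.07, 9.005 and 8.48 against 7.61, 8.13 and 8.16 in the knockout. It fell by 0.90 ± 0.27 (adjusted p = 0.0458) and 0.89 ± 0.27 (adjusted p = 0.04), but these calls were lost in 8 and 6 of the 12 fits without 1 array. The spoke head proteins Rsph9 and Rsph1 did not pass in any comparison. Rsph9 read 8.53, 8.39 and 8.01 against 8.17, 8.18 and 7.75 in wild type and 8.29, 8.49 and 8.01 against 7.90, 7.89 and 8.25 in the knockout, with overlapping groups and differences of -0.27 and -0.25. Rsph1 differed by -0.34 and -0.15.

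In the central apparatus Spag16 fell in both genotypes. It read 8.36, 8.28 and 8.26 against 7.75, 7.68 and 7.54 in wild type and 8.52, 8.39 and 8.01 against 7.07, 7.42 and 7.45 in the knockout, falls of 0.64 ± 0.14 (limma adjusted p = 0.0158) and 0.99 ± 0.14 (adjusted p = 0.00223). Leaving out SB replicate 1 or VILI replicate 3 of the wild type ended its call there, at an adjusted p of 0.0587 and 0.0588. Hydin, a large central-pair protein, fell by 0.43 ± 0.10 in wild type (adjusted p = 0.0219, and 0.0517 to 0.0773 without wild-type SB replicate 1, VILI replicate 2 or VILI replicate 3) and differed by -0.13 in the knockout. Spef2 differed by -0.19 in wild type and fell by 0.75 ± 0.16 in the knockout (adjusted p = 0.0105), but its second probe set gave the opposite order, -0.60 and -0.06, and the mean of both lost the call. Spag17 varied among the SB arrays of the knockout from 4.25 to 5.89 and passed in no comparison, at -0.75 and -0.04.

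The molecular ruler formed by Ccdc39 and Ccdc40, which sets the repeat of spokes and inner arms, fell in wild type by 0.46 ± 0.14 (limma adjusted p = 0.0468) and 0.75 ± 0.20 (adjusted p = 0.0321). In the knockout their differences of -0.35 and -0.54 did not pass. Iqcg, of the nexin-dynein regulatory complex that links the doublets, differed by -0.80 in wild type (adjusted p = 0.0524) and fell by 0.78 ± 0.25 in the knockout (adjusted p = 0.0468), where it was -0.46 without knockout VILI replicate 1 and -0.39 with array weights. These calls of Ccdc39, Ccdc40 and Iqcg were lost in 9, 6 and 9 of the 12 fits without 1 array. With both genotypes averaged all 3 fell, where 22.6% of all genes did.

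The transport and transition zone genes fell by small amounts with a small spread. Dynlrb2, a light chain of the dynein complexes, read 12.06, 12.08 and 11.93 against 11.52, 11.38 and 11.17 in wild type and 11.79, 12.15 and 11.77 against 11.30, 11.37 and 11.43 in the knockout. Its falls were 0.67 ± 0.12 (limma adjusted p = 0.00723) and 0.54 ± 0.12 (adjusted p = 0.0152). Ift172, a subunit of the transport train, fell by 0.68 ± 0.13 (adjusted p = 0.00759) and 0.45 ± 0.13 (adjusted p = 0.0323), the latter lost in 4 of 12 fits without 1 array. Ift88, of the same trains, differed by -0.38 and -0.39 and fell only as an average of both genotypes (-0.39 ± 0.09, adjusted p = 0.0101). Tctn1, of the transition zone at the cilium's base, fell by 0.44 ± 0.11 in wild type (adjusted p = 0.027, lost in 4 of 12 such fits) and differed by -0.06 in the knockout. Intraflagellar transport and the transition zone also serve the primary cilia of other lung cells.

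Of the 9 other axonemal or cilium-associated genes tested, 6 fell in wild type, 3 in the knockout and 8 with both averaged. Of all genes, 9.03%, 12.6% and 22.6% fell in these comparisons. Enkur read 9.44, 9.34 and 9.52 against 8.96, 8.59 and 8.56 in wild type and 9.27, 9.69 and 9.04 against 8.45, 8.57 and 8.05 in the knockout. It fell by 0.73 ± 0.19 (limma adjusted p = 0.0268, lost in 4 of 12 fits without 1 array) and 0.98 ± 0.19 (adjusted p = 0.00712). Ak8, an adenylate kinase, read 7.28, 7.51 and 7.11 against 6.54, 6.51 and 6.18 in wild type, a fall of 0.89 ± 0.16 (adjusted p = 0.00664). Knockout arrays read 6.82, 6.95 and 6.95 against 6.23, 6.59 and 6.81, a difference of -0.37 that did not pass although the groups did not overlap. Cfap126 fell by 0.62, Ccdc113 by 0.86 and the adenylate kinase Ak7 by 0.44 in wild type, and their differences of -0.36, -0.58 and -0.23 in the knockout did not pass. The wild-type calls of Ccdc113 and Ak7 were lost in 4 and 6 of 12 fits without 1 array, with adjusted p up to 0.0958 and 0.121. Meig1 differed by -0.52 in wild type and fell by 0.80 ± 0.24 in the knockout (adjusted p = 0.0374), a call lost in 8 of 12 fits without 1 array. The value was -0.49 without knockout SB replicate 2, and -0.46 with array weights. Tppp3, a microtubule-binding protein, fell by 0.47 (adjusted p = 0.0472) and 0.51 (adjusted p = 0.0288), calls lost in 10 and 5 of the 12 fits. Spa17 passed only as an average, and Armc3 in no comparison, at -0.02 and -0.30.

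Across the roles, at least 1 gene fell in every role in each genotype. The calls that passed in every fit without 1 array were those of Foxj1, Tekt4, Dnali1, Wdr78, Rsph4a, Ift172, Dynlrb2, Ak8 and Cfap126 in wild type. In the knockout they were those of Tekt4, Dnali1, Zmynd10, Rsph4a, Spag16, Spef2, Dynlrb2 and Enkur. At least 1 of the other settings ended the calls of Rfx3, Tekt2, Lrrc23, Ccdc39, Ccdc40, Tctn1, Ak7 and Tppp3 in wild type. In the knockout such settings ended those of Foxj1, Dnaic2, Armc4, Lrrc23, Spef2, Iqcg, Ift172, Tppp3 and Meig1. With array weights the knockout falls of Enkur and Lrrc23 were -0.62 and -0.56 and still passed. All 3 wild-type VILI arrays lay under all 3 SB arrays for 32 of the 40 genes, where 20.5% of all genes did. The knockout arrays did so for 27 of 40, where 25.8% of all genes did, and all 6 VILI arrays lay under all 6 SB arrays for 23 of 40, where 10.4% of all genes did. For no ciliary gene did the VILI arrays of a genotype all lie above its SB arrays.

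**Figure D3:**
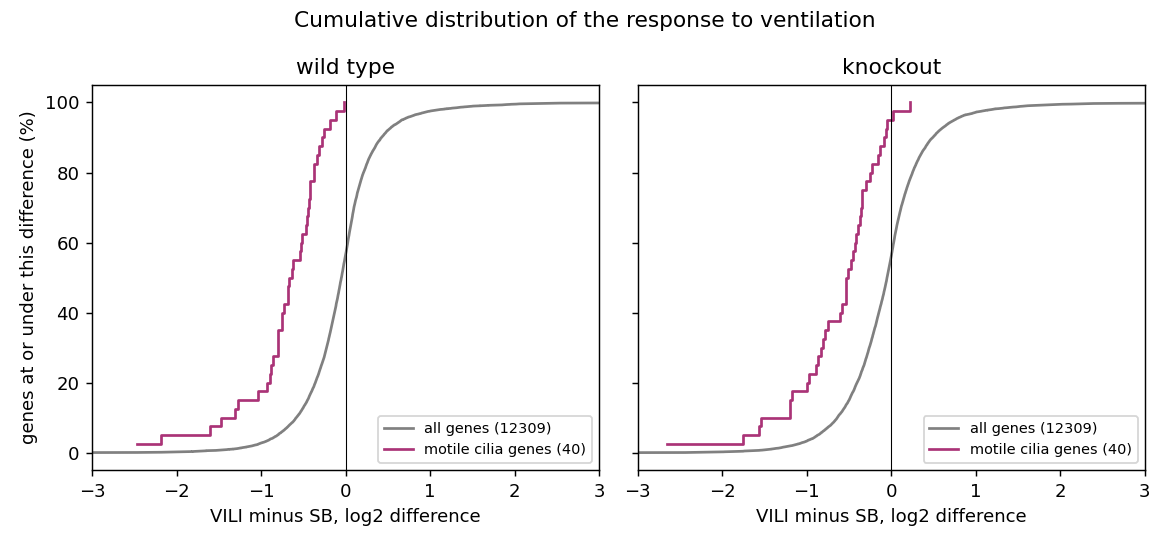
Share of genes at or under each log2 difference of VILI minus SB, for the 40 tested ciliary genes (purple) and all 12309 genes tested (grey), in wild type (left) and knockout (right). The ciliary curve lies left of the curve of all genes, with medians of -0.65 and -0.52 against -0.05.

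The genotypes shared 13 of these genes, 59.1% of the 22 called in wild type and 72.2% of the 18 called in the knockout. Over all genes, 747 (6.07%) were called lower in both, 67.2% of the 1112 in wild type and 48.0% of the 1555 in the knockout. Beside Foxj1, Rfx3 and Tekt4, the 13 were Dnali1, Wdr78, Zmynd10, Rsph4a, Lrrc23, Spag16, Ift172, Dynlrb2, Enkur and Tppp3. 9 genes passed in wild type alone and 5 in the knockout alone, but no difference between the responses was shown. The test of the knockout's response minus that of wild type called 0 of the 40 genes, and 0% of all genes (limma, smallest adjusted p 0.971). At an unadjusted p under 0.05 it held 4 of the 40, where 619 of all genes (5.03%) did. These were Spef2 at -0.56 (95% interval -1.06 to -0.07), Tctn1 at 0.38 (0.03 to 0.74), Dnah11 at 0.33 (0.01 to 0.66) and Ak8 at 0.52 (0.01 to 1.03), named after their values were seen. The median of this difference over the 40 genes was 0.10.

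Between genotypes in the same state, 0 of the 40 genes passed. Under SB, 0.0487% of all genes passed, and 3 of the 40 had an unadjusted p under 0.05, where 460 of all genes (3.74%) did (limma, smallest adjusted p of the 40, 1.0). The largest of these knockout minus wild-type values was that of Rfx2, -0.50 ± 0.19 (95% interval -0.92 to -0.08). Under VILI, 0.106% of all genes passed, and 3 of the 40 had an unadjusted p under 0.05, where 1070 (8.69%) of all genes did (smallest adjusted p of the 40, 0.351). The value of Foxj1 was 0.71 ± 0.43 (-0.24 to 1.65), and 0.16 without knockout VILI replicate 3. Tekt4 was at -0.65 ± 0.23 (-1.15 to -0.15, adjusted p = 0.467). The median genotype value was -0.08 under SB and 0.00 under VILI. With weights for array quality, Rsph1 passed under SB (-0.54, adjusted p = 0.032) and Tekt4 under VILI (-0.84, adjusted p = 0.0194).

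Among the pathway's other genes, those of the axoneme were also mostly lower after ventilation. The shares of all genes to set beside the following counts are 9.03% lower and 6.34% higher in wild type. In the knockout they are 12.6% and 8.12%. Of 115 other axonemal genes listed, 76 were tested, of which 28 fell and 0 rose in wild type and 26 fell and 1, Tubb4b, rose in the knockout, with medians of -0.54 and -0.44. Tppp fell by 2.13 ± 0.27 in wild type (limma adjusted p = 0.00126), and in the knockout it fell by 2.44 ± 0.27 (adjusted p = 0.000605), Lrrc36 by 1.85 and 1.77, Lrrc6, a dynein preassembly factor, by 1.22 and 1.56, and Pifo by 0.67 and 0.85. Tppp is also a microtubule protein of other cells, and its source in lung was not tested. Of 58 genes of intraflagellar transport, the BBSome (a ciliary cargo complex) and the transition zone, 52 were tested, of which 18 fell and 0 rose in wild type and 22 fell and 1, Ofd1, rose in the knockout, with medians of -0.36 and -0.39. Among them Traf3ip1 fell by 1.05 and 0.84, Cc2d2a by 1.27 and 0.93, Ttc30b by 0.75 and 0.77 and Ift52 by 0.69 and 0.93. Tubb4b at 0.41 and Ofd1 at 0.28 were named after their values were seen.

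Of the other regulators of multiciliated cell formation, some rose and some fell. Of 30 listed, 23 were tested, of which 6 fell and 2 rose in wild type and 3 fell and 2 rose in the knockout, with medians of -0.20 and -0.19. In the knockout these shares, 13.04% lower and 8.70% higher, are near the 12.6% and 8.12% of all genes, and in wild type they are 26.1% and 8.70% against 9.03% and 6.34%. Myb, a factor that acts before Foxj1 in multiciliated cells and is also active in blood progenitors, read 9.03, 8.61 and 8.86 in wild-type SB lung and 6.65, 7.06 and 6.55 in wild-type VILI lung. In the knockout it read 8.96, 9.14 and 8.53 under SB and 7.21, 7.34 and 8.50 under VILI, so that knockout VILI replicate 3 was the high array for Myb as for Foxj1. Myb fell by 2.08 ± 0.31 in wild type (limma adjusted p = 0.00253) and by 1.19 ± 0.31 in the knockout (adjusted p = 0.0241). Ccp110, a cap of the centriole whose removal precedes the growth of cilia, fell by 1.02 and 0.66, and Gmnn, which encodes the inhibitor of the factors that start multiciliogenesis and of DNA replication licensing, fell by 0.69 and 0.52. Cep152, a scaffold of centriole duplication, rose by 0.25 and 0.41. The remaining calls, named after their values were seen, were falls of Hey1 (-1.12), Jag1 (-0.75) and Stk36 (-0.89) and a rise of Plk4 (0.51) in wild type, and a rise of Notch2 (0.65) in the knockout.

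**Figure D4:**
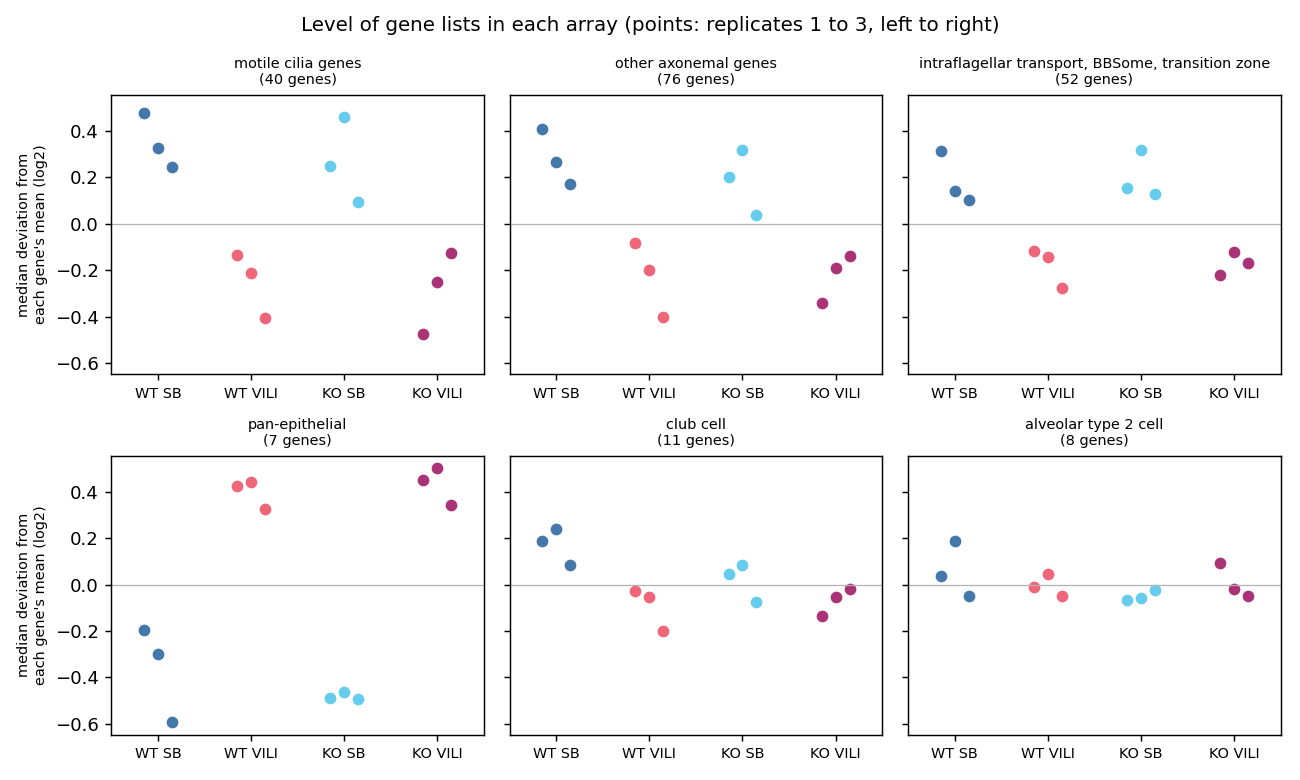
Median over each gene list of the deviation of a gene's log2 signal from its mean over the 12 arrays, for each array (points, replicates 1 to 3 from left to right; WT wild type, KO knockout). The ciliary lists are lower and the pan-epithelial list higher on all 6 VILI arrays than on all 6 SB arrays, while the alveolar type 2 list overlaps.

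In whole lung, fewer cells of a type and less RNA per cell cannot be told apart, and a list's level relates to the RNA of all other cells. The levels of other cells' marker lists therefore stand beside these results. Of all genes, 9.03% fell and 6.34% rose in wild type, and 12.6% fell and 8.12% rose in the knockout. The signal of each list was summed on the linear scale, where the brightest genes weigh most, and is given as log2. For the 40 ciliary genes it was 14.64 to 14.73 in wild-type SB lung and 13.91 to 14.22 in wild-type VILI. It was 14.48 to 14.83 in knockout SB and 14.02 to 14.14 in knockout VILI. For the 7 pan-epithelial genes, 4 rose in wild type and 6 in the knockout. The log2 of the summed signal was 14.85 to 15.24 and 14.82 to 15.09 under SB and 15.87 to 15.91 and 15.88 to 16.05 under VILI, in wild type and knockout. Of 11 genes of club cells, the secretory cells of the same airways, 3 fell and 0 rose in each genotype (Gsta3, Aldh1a7 and Cckar), with medians of -0.20 and 0.00. The log2 of their summed signal was 17.82 to 18.00 and 17.65 to 17.93 under SB and 17.60 to 17.87 and 17.73 to 17.78 under VILI. Of 8 alveolar type 2 genes, 0 passed in wild type and Sftpd rose in the knockout, with medians of -0.07 and 0.07.

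Neutrophil and leukocyte markers were high on 1 wild-type SB array, replicate 3. Of 6 neutrophil genes tested, 1 rose in wild type and 6 in the knockout, where 6.34% and 8.12% of all genes rose. Their medians were 1.50 and 3.26. The log2 of their summed signal was 12.59 to 15.36 and 12.00 to 12.36 under SB and 14.87 to 15.60 and 15.08 to 15.80 under VILI. Wild-type SB replicate 3 alone, at 15.36, overlapped the VILI range. Without that array, an alternative chosen after seeing the data, all 6 neutrophil genes rose in wild type, with a median of 2.36. Of 6 general leukocyte genes 0 passed in either genotype, with medians of 0.47 and 0.51, and without the same array 5 rose in wild type and 4 in the knockout. A rise particular to the knockout is therefore not shown. No gene of the 3 basal cell genes tested passed. Of 8 alveolar type 1 genes Rtkn2 fell in both genotypes and Pdpn rose in the knockout, and of 7 endothelial genes Cldn5 rose in both and Tek fell in the knockout. No marker tested was at 0. The part of these shifts in the lower ciliary signal was not tested.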

How the data were processed

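Values are the log2 signals the authors deposited, 1 per probe set and array; MAS5 and GCRMA are named per the submitters' processing notes, without the step or version of each. Background correction can change differences between dim probe sets, and which of the named methods corrected these values is not known. A genome build was not given in the sources used here. No arrays were dropped and 0 sample columns went unused. 34945 of 45037 probe sets carried 1 gene symbol, 932 several and 9160 none. Probe sets whose mean was under the 40th percentile (log2 3.06) were left out, and the probe set with the highest mean stood for a gene. limma 3.58.1 in R 4.3.3 fitted 4 group means over all 12 arrays (lmFit, eBayes) with Benjamini-Hochberg adjustment over 12309 genes and a threshold of 0.05. The fits were tested on simulated data. Errors of differences are SE; 3 arrays per group limit the precision, with a median SE of 0.148. p-values measure the spread between these animals.

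The genes, their lists and roles were chosen with earlier results of these data known. Genes given in full are the regulators, Foxj1 and Tekt4, the 10 largest differences per ventilation comparison and up to 4 genes with the smallest p of each other list. Alternatives were the filter, probe sets averaged, 2 scalings, arrays left out, a replicate block, array weights and a trended prior. Promoters are RefSeq windows (GRCm38.p6).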

Additional observations from a re-analysis of the deposited data

How the results depend on the processing

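Leaving out 1 array gave 9 to 24 called genes in wild type, 8 to 20 in the knockout and 29 to 33 with both averaged. Lower calls over all genes ranged in these fits from 517 to 1314, from 738 to 1985 and from 2161 to 2921. The median difference of responses ranged from -0.04 to 0.23, and the median genotype value under SB from -0.19 to -0.01. At the 60th percentile filter (log2 7.072), 9335 genes were tested, and ciliary genes with a mean under that level were left out. There 11 ciliary genes were called in the knockout and 20 with both averaged, where 1391 and 2329 of the genes tested fell. Fewer ciliary genes entered this fit, so its lower counts do not show a weaker fall. Without the 2 SB arrays that stand apart, the median difference of responses was 0.27 and the median genotype value under SB -0.24. With array weights they were 0.31 and -0.26 (the cause was not tested). With these weights 1 ciliary gene was called between genotypes under SB, where 42 of all genes were lower and 60 higher. Under VILI 1 was called, where 430 of all genes were lower and 422 higher. The weights' iteration stopped before its tolerance. Signs turned for 5 genes, none of which passed before or after. In wild type these were Armc3 (0.025 with equal medians, 0.015 with quantile normalization, -0.080 to 0.040 without 1 array) and Rfx2 (-0.19 to 0.055 without 1 array). In the knockout, without 1 array, they were Dnah9 (-0.20 to 0.0070), Spag17 (-0.36 to 0.48) and Tctn1 (-0.12 to 0.0019). Same-numbered arrays did not deviate together throughout (correlations from -0.628 to 0.398), and the numbers were not used as pairs. Arrays of different numbers were not compared in this way, so a day or batch shared by a number was not tested. With the replicate block, 18, 12 and 31 ciliary genes were called in wild type, in the knockout and with both averaged. Of all genes, 825, 1131 and 2403 then fell. Of 22 calls in wild type and 18 in the knockout, 9 and 7 passed in every alternative that tested them. Among these, Tekt4, Wdr78, Ak8 and Zmynd10 lay under the 60th percentile and were not tested at that filter. Signal near the minimum limits Dnaic1 and Spag6, and on knockout VILI arrays also Tekt4, Spef2 and, on replicate 1, Dnaaf1.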

Other observations

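The genes outside the ciliary set whose signal followed Foxj1 most closely over the 12 arrays were Myb, Zfp667, Prkd2, Fam216a and Cdc14a. Because SB and VILI arrays form separate clusters, their order rests on Pearson's r over all arrays (0.965 to 0.972) and the values within clusters are given as a description. Within the 6 SB arrays r was 0.61 for Myb, 0.71 for Zfp667, 0.67 for Prkd2 and 0.89 for Fam216a and for Cdc14a. Within the 6 VILI arrays it was 0.92 for Myb and Zfp667, 0.93 for Prkd2, 0.85 for Fam216a and 0.84 for Cdc14a. Without knockout VILI replicate 3, where Foxj1 was highest among these, it was 0.62, 0.68, 0.88, 0.79 and 0.38 for Myb, Zfp667, Prkd2, Fam216a and Cdc14a, an alternative chosen after seeing the data. The points share arrays, and genes were ranked on these arrays, so no p is given. Myb averaged 8.83 and 8.88 under SB and 6.75 and 7.68 under VILI in wild type and knockout, and the zinc finger gene Zfp667 6.97 and 6.85 under SB and 4.81 and 4.997 under VILI.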
